A study of Mus musculus with 23 samples.

Results

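Chemokine ligands and receptors were followed in sorted mouse lung tumor cells. Members were taken by symbol, as all genes named Ccl, Cxcl, Ccr or Cxcr with a number and at most 1 letter, plus Cx3cl1, Cx3cr1, Xcl1 and Xcr1. The rule found 58 symbols (40 ligands and 18 receptors) among the 35455 genes of the table that holds BRAFV600E and BRAFV600E/PI3KαH1047R tumors, and the same 58 among the 35454 genes of the table that holds tumors with and without PGC1α. The rule reads symbols and no levels. Tumors were initiated in Braf CAT/+ mice with the adenovirus Ad5-SpC-CRE, which limits CRE to Sftpc-expressing alveolar type 2 (AT2) pneumocytes, and in all 23 mice the CAT allele then coexpressed BRAFV600E and tdTomato, the red protein by which cells were sorted. Of these libraries, 6 carried BRAFV600E alone, with 1 library from 2 weeks, 3 from 6 weeks and 2 from 12 weeks post-initiation (p.i.), and 8 carried the HR/+ allele as well, which adds PI3KαH1047R, with 2, 4 and 2 libraries from the same weeks. The other 9 were collected at 12 weeks p.i. from BRAFV600E mice with a floxed Ppargc1a gene, which encodes PGC1α, and 5 of them were mutant/+ (PGC1αHet) and 4 mutant/mutant (PGC1αNull). All mice were 3 to 4 months old and of mixed C57BL/6, 129 and FVB background. Those harvested at 12 weeks had received less virus than those harvested at 2 and 6 weeks, so week and virus titer cannot be told apart between 6 and 12 weeks.

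Chemokines are small secreted or membrane-tethered proteins that draw cells along a gradient by binding seven-transmembrane receptors coupled to Gi proteins. CXC ligands with the ELR motif act on CXCR2 and recruit neutrophils, the interferon-inducible ligands Cxcl9, Cxcl10 and Cxcl11 act on CXCR3 of T and NK cells, and many CC ligands recruit monocytes, dendritic cells and lymphocytes. In the lung, AT2 and airway epithelium secrete several chemokines themselves, macrophages and endothelium secrete others, and most of the receptors sit on leukocytes.

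All values are normalized counts, that is, transcript counts estimated from reads and scaled between libraries by the authors. Their totals ran from 16433820 to 20287296 in the table of BRAFV600E and BRAFV600E/PI3KαH1047R tumors and from 7115753 to 9159567 in the PGC1α table. The 2 tables were scaled separately, and levels are compared only within a table. Sftpc, which encodes the defining AT2 surfactant protein C, was abundant in every library, at 21173 to 392700 in the first table and 222448 to 348418 in the second. Ppargc1a ran from 75.8 to 561 in PGC1αHet and from 38.0 to 124 in PGC1αNull tumors, so the groups overlapped for the targeted gene. Transcripts of other lung cells were present throughout, and in bulk RNA fewer cells of a type and less RNA per cell cannot be told apart. Both BRAFV600E/PI3KαH1047R libraries of 12 weeks go against their sex labels, with the Y-linked gene Kdm5d at 502 in replicate 1, labelled male, and at 4728 in replicate 2, labelled female. Whether another label of these libraries was exchanged with it was not tested, and the main results that rest on them are also given without one or both where a fit was possible.

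Of the 58 members, 40 (28 ligands and 12 receptors) reached a mean of 10 normalized counts over the 14 BRAFV600E and BRAFV600E/PI3KαH1047R libraries, and 37 (25 ligands and 12 receptors) did so over the 9 libraries of the PGC1α table. In both tables the ligands above this level included Cxcl1, Cxcl2, Cxcl3, Cxcl5 and Cxcl15, grouped here as the ELR class. They also included the CXCR3 ligands Cxcl9, Cxcl10 and Cxcl11, and Cxcl12, Cxcl13, Cxcl16, Cxcl17 and Cx3cl1. The CC ligands among them were Ccl2, Ccl3, Ccl5, Ccl6, Ccl9, Ccl11, Ccl17, Ccl22, Ccl25, Ccl27a and Ccl28. Cxcl14, Ccl21a, Ccl21b and Ccl24 reached the level only in the first table, and Ccl4 only in the PGC1α table. The receptors included Cxcr2, Cxcr4, Cxcr6, Ccr1, Ccr2, Ccr4, Ccr7, Ccr9, Cx3cr1 and Xcr1 in both, with Cxcr5 added in the first table and Ccr3 in the second. Neither table reached it for 11 ligands (Ccl1, Ccl7, Ccl8, Ccl12, Ccl19, Ccl20, Ccl21c, Ccl26, Ccl27, Ccl27b and Xcl1) or for 5 receptors (Cxcr1, Cxcr3, Ccr6, Ccr8 and Ccr10). Cxcr3, the receptor of Cxcl9, Cxcl10 and Cxcl11, was thus among the members too low to test in either table. Ccl1, Ccl26 and Ccl27b were listed at 0 in all 14 libraries of the first table. Nearest to the threshold in that table were Ccl21b (10.6) and Ccl24 (11.3) above it and Cxcr1 (9.92) and Ccr6 (8.81) below it, and in the PGC1α table Ccl11 (10.2) and Cxcl11 (12.0) above and Ccl24 (9.32) and Cxcr5 (8.64) below.

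One epithelial ligand dominated the family. Cxcl15, also called lungkine, is a mouse neutrophil chemokine made by lung epithelium, and it made up 30.98% to 97.2% (median 91.6%) of all ligand counts in the libraries of the first table and 81.4% to 94.3% (median 90.6%) in those of the second. Per kilobase of exon, to allow genes to be compared, Cxcl15 averaged 26365 normalized counts in the first table, ahead of Cxcl12 (304), Cxcl9 (275), Ccl6 (252), Cxcl16 (246) and the receptor Cxcr4 (183). The place of Cxcl9 rests on 1 library, since its mean of 829.7 normalized counts stood beside a median of 70.8. The same scale in the PGC1α table placed Cxcl15 first (10634), followed by Cxcl17 (361), Ccl6 (218), the neutrophil receptor Cxcr2 (209), Cxcl16 (145) and Ccl3 (138). Levels were uneven between mice. In the first table the highest library exceeded 5 times the median for 15 of the 28 ligands and for 3 of the 12 receptors, against 3 of 25 ligands and 1 of 12 receptors in the PGC1α table. A single library, BRAFV600E/PI3KαH1047R 12 weeks replicate 1, was the highest of the 14 for 19 of the 40 members (47.5%), whereas it was the highest for 9.55% of all 17558 genes tested. The next was BRAFV600E/PI3KαH1047R 6 weeks replicate 1, which was highest for 6 members (15% of members and 11.5% of genes).

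**Figure D1:**
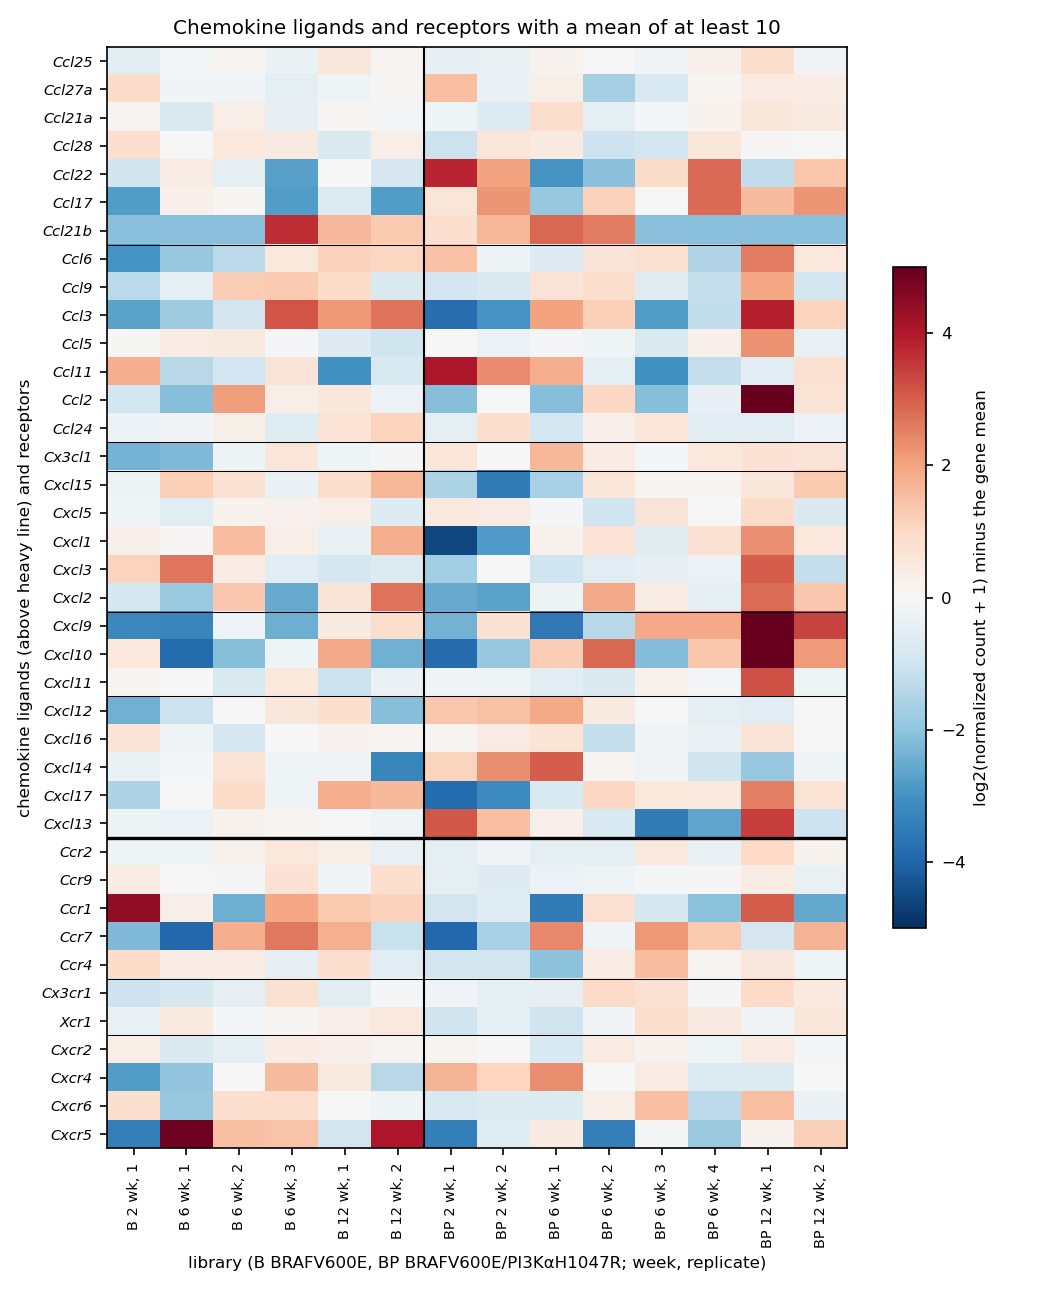
Each row is a member with a mean of at least 10 (1 of the 40 is not drawn) and each column 1 of the 14 libraries (B, BRAFV600E; BP, BRAFV600E/PI3KαH1047R; week, replicate), and color gives log2 (normalized count + 1) minus the mean of that gene. The column of BRAFV600E/PI3KαH1047R 12 weeks replicate 1 is the highest for Cxcl9, Cxcl10 and Ccl2 among others, and the 2-week BRAFV600E/PI3KαH1047R columns are low for Cxcl1, Cxcl15 and Cxcl17 and high for Cxcl12 and Cxcr4.

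The members lie in a few genomic clusters, which bear on how their promoters compare. By the GENCODE vM21 annotation of GRCm38, which holds 56 of the 58 symbols (not Ccl21c or Ccl27), 14 members lie on chromosome 11, 11 of them CC ligands, 11 lie on chromosome 9, all of them receptors, and 11 lie on chromosome 5. The chromosome 5 members include Cxcl5, Cxcl3, Cxcl15, Cxcl1 and Cxcl2 in 1 stretch (90759360 to 90905938) and Cxcl9, Cxcl10 and Cxcl11 in another (92321347 to 92365485). Promoters were available from RefSeq (GRCm38.p6) for 41 of the members. A κB motif was searched on both strands of the promoter windows before the start. It lay in 10 of these 41 genes (Ccl9, Ccl19, Ccl20, Ccr3, Ccr6, Cxcl1, Cxcl2, Cxcl3, Cxcl9 and Cxcl10). Counted by window, it lay in 10 of 48 member windows and in 4.11% of all 32851 promoter windows. The core of an interferon-stimulated response element (ISRE), searched on both strands, lay in 3 members (Ccl19, Cxcl10 and Cxcl14). By window these were 3 of 48, against 2.98% of all windows. These are matches of letters and not sites of binding. Shown here are the promoter windows, up to the base before the start, of 2 CXCR3 ligands, of 2 ELR ligands and, as the contrast with neither motif, of Cxcl15, since these are the genes whose levels by week and genotype are described next. Capitals mark the matches on the gene's own strand or its reverse: a κB match in Cxcl9, a κB match and upstream of it an interferon element in Cxcl10, 2 κB matches in Cxcl1 and 1 in Cxcl3.
Cxcl9 (chr5:92328080-92328329, minus strand): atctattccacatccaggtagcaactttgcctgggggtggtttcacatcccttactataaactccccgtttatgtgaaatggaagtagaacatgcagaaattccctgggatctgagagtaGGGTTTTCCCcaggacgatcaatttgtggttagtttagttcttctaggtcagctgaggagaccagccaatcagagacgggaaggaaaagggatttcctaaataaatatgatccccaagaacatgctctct
Cxcl10 (chr5:92348890-92349139, minus strand): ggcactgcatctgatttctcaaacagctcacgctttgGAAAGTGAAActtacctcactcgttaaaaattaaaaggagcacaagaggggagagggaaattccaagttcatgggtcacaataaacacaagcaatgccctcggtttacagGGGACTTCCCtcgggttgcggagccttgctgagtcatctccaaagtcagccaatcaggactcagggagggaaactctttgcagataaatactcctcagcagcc
Cxcl1 (chr5:90890995-90891244, plus strand): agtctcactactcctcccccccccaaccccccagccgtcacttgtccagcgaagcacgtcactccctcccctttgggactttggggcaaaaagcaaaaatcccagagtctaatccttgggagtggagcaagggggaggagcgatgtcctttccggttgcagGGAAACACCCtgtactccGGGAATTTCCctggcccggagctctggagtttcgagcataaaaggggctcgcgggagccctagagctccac
Cxcl3 (chr5:90785851-90786100, plus strand): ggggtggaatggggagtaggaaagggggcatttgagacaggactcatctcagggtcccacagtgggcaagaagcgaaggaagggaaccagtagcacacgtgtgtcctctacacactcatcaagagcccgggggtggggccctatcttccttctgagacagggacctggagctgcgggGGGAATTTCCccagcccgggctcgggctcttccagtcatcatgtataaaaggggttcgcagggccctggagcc
Cxcl15 (chr5:90794284-90794533, plus strand): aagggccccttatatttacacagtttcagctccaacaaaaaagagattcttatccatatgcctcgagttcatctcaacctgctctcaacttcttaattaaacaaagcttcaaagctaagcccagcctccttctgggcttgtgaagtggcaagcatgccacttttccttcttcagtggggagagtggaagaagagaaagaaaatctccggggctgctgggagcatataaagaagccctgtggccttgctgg

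No chemokine ligand or receptor passed the threshold of an adjusted p of 0.05 in any comparison of genotypes or weeks, and the differences described from here on are given with that limit. With limma on log2 (normalized count + 1), 0 of 40 members passed between genotypes with all weeks pooled, where 0.0228% of the 17558 genes tested did, and 0 of 40 passed at 2 weeks (0.0171% of genes), at 6 weeks (0.0228%) and at 12 weeks (0.0114%). Between weeks, 0 of 40 passed for 6 against 2 weeks (0.0513% of genes) and for 12 against 6 weeks (0% of genes), and 0 of 40 passed for the difference of the genotype effect between 6 and 2 or between 12 and 6 weeks (0% of genes each). For PGC1αNull against PGC1αHet, 0 of 37 members and 0% of the 17424 genes tested passed. At an unadjusted p under 0.05 with weeks pooled, 3 of 40 members were higher in BRAFV600E/PI3KαH1047R tumors (3.46% of genes) and 1 lower (3.38%). Members numbered 5 higher (6.93% of genes) and 4 lower (6.57%) at 2 weeks, 1 higher (2.24%) and 1 lower (1.99%) at 6 weeks, and 5 higher (2.18%) and 0 lower (1.58%) at 12 weeks. Between weeks, 5 were higher (6.58% of genes) and 2 lower (5.35%) at 6 than at 2 weeks, and 5 higher (2.3%) and 1 lower (3.02%) at 12 than at 6 weeks. The signed genotype effect was more positive at 6 than at 2 weeks for 2 members (4.28% of genes) and more negative for 2 (4.66%), and more positive at 12 than at 6 weeks for 1 (1.54%) and more negative for 0 (1.33%). In PGC1αNull tumors 3 of 37 members were higher (2.66% of genes) and 1 lower (1.17%). In either direction together these were 4 members of 40 with weeks pooled (6.83% of genes), 9 at 2 weeks (13.5%), 2 at 6 weeks (4.24%), 5 at 12 weeks (3.76%), 7 between 2 and 6 weeks (11.9%), 6 between 6 and 12 weeks (5.31%), 4 and 1 in the changes of the genotype effect (8.95% and 2.87%) and 4 of 37 for PGC1α (3.83%). Some of these members reached the mean of 10 that the test required through 1 of the groups compared, with a mean under 10 in the other, and for them a difference in level helped to decide that they were tested. They were Ccl17 with weeks pooled, Ccl17, Ccr1, Cxcl1 and Cxcl17 at 2 weeks, Cxcr5 at 6 weeks, Ccl17 at 12 weeks, and Ccl11, Ccl3 and Ccr7 for 6 against 2 weeks. Their differences in these comparisons are given as descriptions, without a p. So are those of Cxcl10 at 6 weeks and the changes of the genotype effect on Cxcl1 and Cxcl10 between 6 and 2 weeks. The change for Ccl2 between 12 and 6 weeks is a description too. In each of these a group had a mean under 10.

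Log2 fold changes were above 0 for 31 of 40 members at 12 weeks (median 0.42), where 50.4% of all genes were (median 0.01), and for 26 of 37 in PGC1αNull tumors (median 0.40), where 51.1% were (median 0.01). With weeks pooled they were above 0 for 22 of 40 (median 0.03, against 51.8% of genes), at 2 weeks for 17 (median -0.24, against 50.6%) and at 6 weeks for 20 (median -0.01, against 50.5%). The values for weeks were 27 of 40 above 0 for 6 against 2 weeks (median 0.22, against 51.4% of genes) and 32 of 40 for 12 against 6 weeks (median 0.31, against 49.6%), and the signed genotype effect was more positive for 26 of 40 at 12 than at 6 weeks (50.8% of genes) and for 21 of 40 at 6 than at 2 weeks (50.3%). By class at 12 weeks, all 3 CXCR3 ligands (median 4.55), 6 of 7 inflammatory CC ligands (0.42), 6 of 7 homeostatic CC ligands (0.47), 4 of 5 ELR ligands (0.40) and 7 of 12 receptors (0.06) were above 0. All 14 macrophage markers were above 0 in that comparison too (median 1.04), and their part was not tested. The BRAFV600E/PI3KαH1047R group of 12 weeks holds 2 libraries, of which replicate 1 was the highest of all 14 libraries for 19 of the 40 members.

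Of the 5 ligands grouped as the ELR class, 4 had a negative log2 fold change in BRAFV600E/PI3KαH1047R tumors at 2 weeks p.i. (median of the 5, -1.98). The class includes Cxcl15, and whether Cxcl15 acts on CXCR2 was not examined. Cxcl15 stood in BRAFV600E tumors at 34319.9 at 2 weeks, 93357, 70516 and 32819 at 6 weeks, and 76196 and 129884 at 12 weeks. In BRAFV600E/PI3KαH1047R tumors it was 13891 and 3665 at 2 weeks, 13522, 63410.1, 45570.0 and 44724 at 6 weeks, and 61698 and 101523 at 12 weeks. The lowest values were thus those of both 2-week libraries and 1 of the 6-week libraries of BRAFV600E/PI3KαH1047R, and the groups overlapped at 6 and 12 weeks. For BRAFV600E/PI3KαH1047R against BRAFV600E at 2 weeks the log2 fold change was -2.27 (SE 0.92, limma adjusted p = 0.313), and it rests on a single BRAFV600E library, which is assumed to vary as the other groups do. It was -1.30 without BRAFV600E/PI3KαH1047R 2 weeks replicate 2. Cxcl1, a ligand of the same type that inflammatory signals induce, was at 42.9 at 2 weeks, 37.6, 107 and 45.3 at 6 weeks, and 28.1 and 130.3 at 12 weeks in BRAFV600E tumors. The BRAFV600E/PI3KαH1047R values were 0.584 and 4.22 at 2 weeks, 42.0, 58.2, 23.2 and 61.3 at 6 weeks, and 179.9 and 53.3 at 12 weeks. Both BRAFV600E/PI3KαH1047R libraries of 2 weeks were thus the lowest of the 14 for Cxcl1, and the log2 fold change at 2 weeks was -3.93 (SE 1.15). By 6 weeks the log2 fold change of Cxcl1 was -0.38, nearer to 0 by 3.55 log2 units (SE 1.35). This change is a description, since it is built on the 2-week values, with a mean under 10 in BRAFV600E/PI3KαH1047R tumors.

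The lowest p of any member in any comparison belonged to Cxcl17, a mucosal chemokine of airway and lung epithelium, for 6 against 2 weeks. It measured 24.6 at 2 weeks, 73.8, 139 and 63.0 at 6 weeks, and 262 and 227 at 12 weeks in BRAFV600E tumors. In BRAFV600E/PI3KαH1047R tumors the values were 4.19 and 7.25 at 2 weeks, 43.2, 149.7, 105 and 103 at 6 weeks, and 421 and 117 at 12 weeks. Every 6-week library lay above the 2-week libraries of both genotypes. With genotype in the model the log2 fold change was 3.09 (SE 0.54, unadjusted p = 4.76e-05, limma adjusted p = 0.0643), and it was -1.97 for genotype at 2 weeks (SE 0.88). The week difference passed the adjusted threshold when the lone BRAFV600E library of 2 weeks was left out (3.79, limma adjusted p = 0.0174), and also without BRAFV600E/PI3KαH1047R 6 weeks replicate 1 (3.26, limma adjusted p = 0.0299). Cxcl15 (1.82, SE 0.54, limma adjusted p = 0.226) and Cxcl1 (2.72, SE 0.82, limma adjusted p = 0.230) were likewise higher at 6 than at 2 weeks, with Cxcl1 at an adjusted p of 0.0400 by limma and 4.11 log2 units without the lone BRAFV600E library of 2 weeks, but at 1.74 log2 units without BRAFV600E/PI3KαH1047R 2 weeks replicate 1. Without BRAFV600E/PI3KαH1047R 2 weeks replicate 2 the Cxcl15 difference was 1.09. From 6 to 12 weeks Cxcl17 was again higher, by 1.34 log2 units (SE 0.49, limma adjusted p = 0.901), or by 1.16 without both 12-week BRAFV600E/PI3KαH1047R libraries. All 10 AT2 markers had a positive log2 fold change with an unadjusted p under 0.05 for 6 against 2 weeks, and 9 of 10 a negative one for genotype at 2 weeks, where their summed level was 650337 in the BRAFV600E library and 115561 and 57634 in the BRAFV600E/PI3KαH1047R libraries. For 6 against 2 weeks 5 of 6 club cell markers (median 1.81, 3 at that p) and 4 of 5 ciliated cell markers (median 1.28, 2 at that p) were also above 0. Club cell sums were 5419 to 11497 at 2 weeks and 9324 to 23545 at 6 weeks, and ciliated cell sums 1030 to 2261 and 522 to 2131. The part of AT2, club and ciliated cell content in the values of Cxcl15, Cxcl17 and Cxcl1 was not tested.

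**Figure D2:**
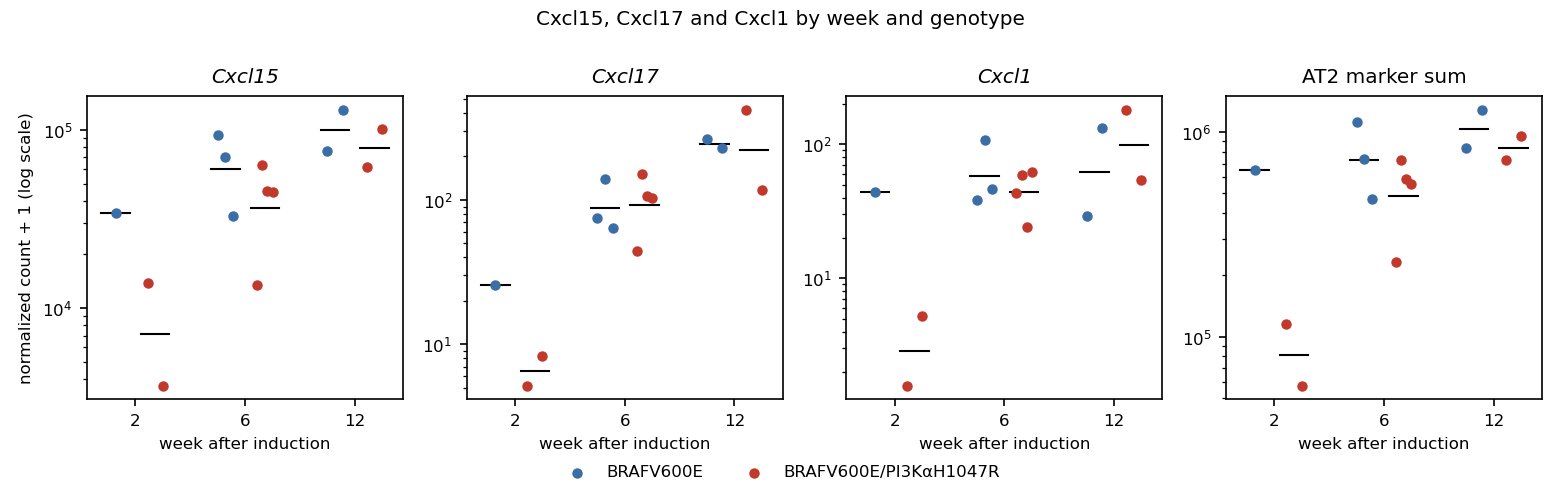
Points are libraries and bars are means on the log scale of normalized count + 1 at 2, 6 and 12 weeks after induction, for Cxcl15, Cxcl17, Cxcl1 and the sum of 10 AT2 markers in BRAFV600E and BRAFV600E/PI3KαH1047R tumors. The 2-week BRAFV600E/PI3KαH1047R libraries are lowest for Cxcl17, Cxcl1 and the AT2 sum, which is 115561 and 57634 there.

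Cxcl2 ran from 1.05 to 77.2 with a median of 11.4 in BRAFV600E tumors and from 0.856 to 81.3 with a median of 11.6 in BRAFV600E/PI3KαH1047R tumors, and it was higher at 12 than at 6 weeks by 2.12 log2 units (SE 0.85, unadjusted p = 0.0252, limma adjusted p = 0.901), or by 2.19 without both 12-week BRAFV600E/PI3KαH1047R libraries. Cxcl3 had its highest values in BRAFV600E/PI3KαH1047R 12 weeks replicate 1 (230.1) and BRAFV600E 6 weeks replicate 1 (180.5), with the remaining libraries at or below 59.7. At 6 weeks its log2 fold change for genotype was -1.39 (SE 0.98, limma adjusted p = 1, exact permutation p = 0.114), and -0.46 without BRAFV600E 6 weeks replicate 1. Cxcl5 ranged from 42.6 to 81.1 with a median of 66.5 in BRAFV600E and from 32.7 to 125 with a median of 77.7 in BRAFV600E/PI3KαH1047R tumors. Cxcl2 and Cxcl3 are alike in sequence, with 7.59% of the 31-base stretches of Cxcl2 transcripts also found in other genes, so a small share of their reads could be counted for either.

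The CXCR3 ligands, which interferon induces and which attract T and NK cells, were highest in BRAFV600E/PI3KαH1047R tumors at 12 weeks p.i., and mostly in 1 library. Cxcl9 was at 5.94 at 2 weeks, 5.55, 54.8 and 11.04 at 6 weeks, and 86.7 and 118 at 12 weeks in BRAFV600E tumors. In BRAFV600E/PI3KαH1047R tumors it was at 11.7 and 109.8 at 2 weeks, 4.51, 24.1, 239 and 240.4 at 6 weeks, and 10022 and 682 at 12 weeks. Both 12-week BRAFV600E/PI3KαH1047R libraries exceeded every other library for Cxcl9, and replicate 1 alone held 86.3% of its counts over the 14 libraries. Cxcl10 measured 19.7 at 2 weeks, 0, 2.28 and 11.5 at 6 weeks, and 51.9 and 1.75 at 12 weeks in BRAFV600E tumors. Its BRAFV600E/PI3KαH1047R values were 0 and 2.85 at 2 weeks, 32.6, 104, 2.17 and 35.5 at 6 weeks, and 1274 and 61.9 at 12 weeks, and replicate 1 of 12 weeks held 79.6% of the total. For Cxcl11 the BRAFV600E values were 29.6 at 2 weeks, 27.3, 15.1 and 38.7 at 6 weeks, and 12.1 and 20.8 at 12 weeks, and the BRAFV600E/PI3KαH1047R values were 24.3 and 22.5 at 2 weeks, 18.2, 15.9, 31.4 and 24.5 at 6 weeks, and 249 and 22.8 at 12 weeks. Cxcl11, annotated as a polymorphic pseudogene in the reference, was thus at 12.1 to 38.7 in the other 13 libraries.

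At 12 weeks the log2 fold changes for genotype were 4.68 for Cxcl9 (SE 1.83), 4.55 for Cxcl10 (SE 1.94) and 2.19 for Cxcl11 (SE 0.95), at unadjusted p of 0.0251, 0.0365 and 0.0387 from limma and an adjusted p of 1 for each, and 2 against 2 libraries are too few for an exact permutation test to reach the threshold. Without replicate 1 of the 12-week BRAFV600E/PI3KαH1047R libraries they were 2.74, 2.38 and 0.49, and no member then had an unadjusted p under 0.05 at 12 weeks. The count was also 0 without BRAFV600E 12 weeks replicate 2, and it was 8 without BRAFV600E/PI3KαH1047R 12 weeks replicate 2. With the sex label as a factor, a label that Kdm5d contradicts for both BRAFV600E/PI3KαH1047R libraries, the count was again 0, and the log2 fold changes were 3.33 for Cxcl9, 4.19 for Cxcl10 and 1.51 for Cxcl11. A fit without both libraries whose sex labels are in doubt leaves no genotype comparison at this week. From 6 to 12 weeks with genotype in the model, Cxcl9 was higher by 4.20 log2 units (SE 1.15, unadjusted p = 0.00252, limma adjusted p = 0.841), by 3.08 without replicate 1, and by 2.76 (unadjusted p = 0.0906) without both 12-week BRAFV600E/PI3KαH1047R libraries. At 6 weeks Cxcl10 had a log2 fold change for genotype of 2.87 (SE 1.48). Its signed genotype effect was more positive at 6 than at 2 weeks by 6.27 (SE 2.80). Both values are descriptions, since Cxcl10 had a mean under 10 in BRAFV600E tumors of 6 weeks and BRAFV600E/PI3KαH1047R tumors of 2 weeks. Cxcl10 shares exon sequence with Art3 on the other strand and Cxcl11 with a predicted gene, and whether the kit kept strand is not given in the sources used here.

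Ccl2, which recruits monocytes through CCR2, and Ccl5, which attracts T cells and monocytes, had the same outlying library. Ccl2 was at 1.29 at 2 weeks, 0, 18.0 and 4.43 at 6 weeks, and 5.51 and 2.61 at 12 weeks in BRAFV600E tumors. The BRAFV600E/PI3KαH1047R values were 0 and 3.33 at 2 weeks, 0, 8.02, 0 and 2.31 at 6 weeks, and 215 and 6.18 at 12 weeks. For Ccl5 they were 37.8 at 2 weeks, 48.1, 49.1 and 33.5 at 6 weeks, and 22.6 and 17.8 at 12 weeks in BRAFV600E tumors and 36.3 and 29.2 at 2 weeks, 33.9, 31.02, 21.5 and 43.6 at 6 weeks, and 175 and 27.5 at 12 weeks in BRAFV600E/PI3KαH1047R tumors. Outside replicate 1 of 12 weeks, Ccl2 was at most 18.0 and Ccl5 at most 49.1 in either genotype. At 12 weeks the log2 fold change of Ccl5 was 1.75 (SE 0.77, unadjusted p = 0.0415, limma adjusted p = 1) and 0.43 without that library (1.54 with the sex label as a factor), and the signed genotype effect on Ccl5 was more positive at 12 than at 6 weeks by 2.18 (SE 0.97, unadjusted p = 0.0430, limma adjusted p = 1.00). The corresponding differences were 2.40 for Cxcl11 (SE 1.19) and 3.07 for Cxcl3 (SE 1.61), each with a limma adjusted p of 1.00. For Ccl2 the difference was 4.03 (SE 2.34), a description, since Ccl2 reached the mean of 10 only through replicate 1 of 12 weeks. Without replicate 1 of 12 weeks these differences were 0.87 for Ccl5, 0.70 for Cxcl11 and 0.94 for Cxcl3, and Ccl2 then had a mean below 10 and was not tested. Macrophage markers were highest in the same library, with a summed level of 35156 against 4292 to 15820 in the other BRAFV600E/PI3KαH1047R libraries and 2513 to 8912 in BRAFV600E tumors. Of the 14 macrophage markers found in the table none was at 0 throughout, 7 were higher at 12 than at 6 weeks at an unadjusted p under 0.05, and their part in these values was not tested. The T and NK cell markers, in contrast, summed to 701 there, within the range of 203 to 1267 of the other BRAFV600E/PI3KαH1047R libraries.

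**Figure D3:**
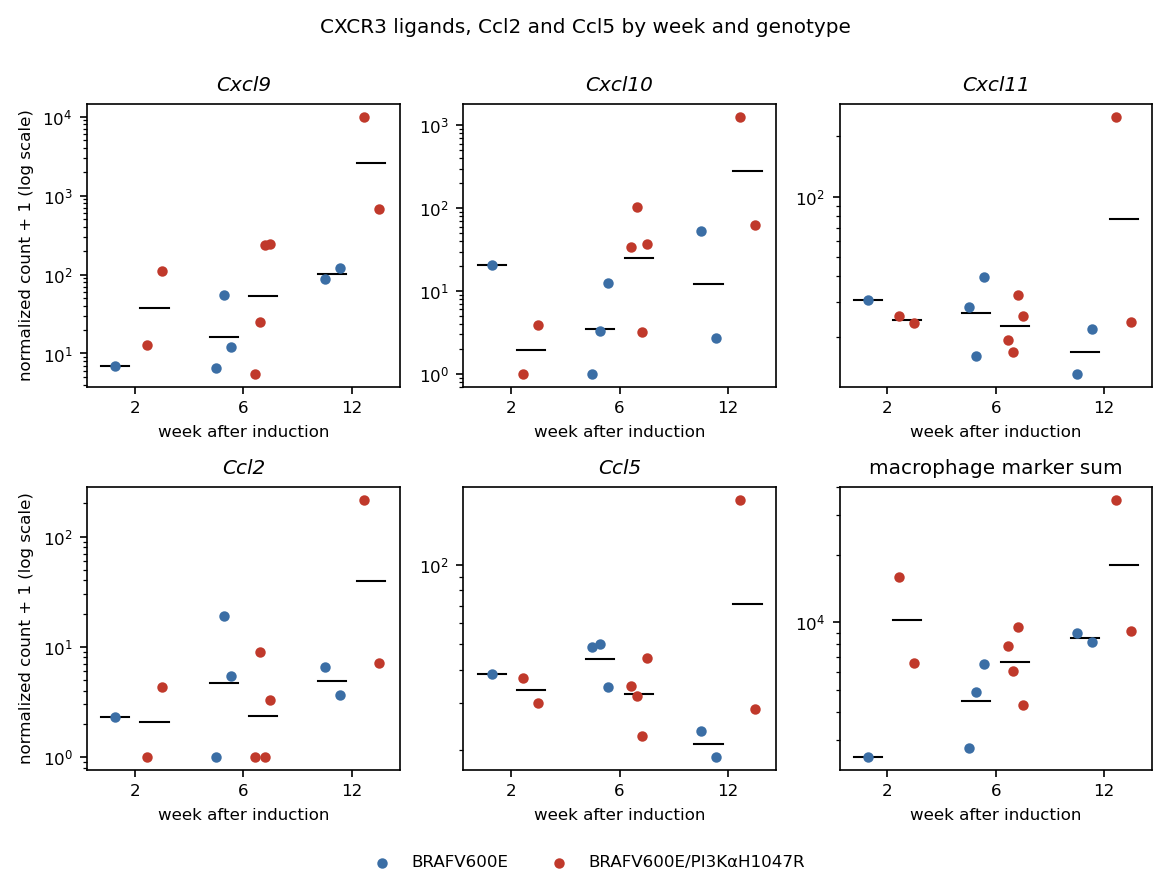
Points are libraries and bars are means on the log scale of normalized count + 1 at 2, 6 and 12 weeks after induction, for Cxcl9, Cxcl10, Cxcl11, Ccl2, Ccl5 and the sum of 14 macrophage markers in BRAFV600E and BRAFV600E/PI3KαH1047R tumors. In every panel 1 of the 12-week BRAFV600E/PI3KαH1047R libraries is the highest, at 10022 for Cxcl9, 215 for Ccl2 and 35156 for the macrophage sum, where the next library is at 15820.

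Cxcl12, its receptor Cxcr4 and Cx3cl1 were higher in both BRAFV600E/PI3KαH1047R libraries of 2 weeks than in the lone BRAFV600E library of that week. That library was labelled female and both others male, so sex and genotype cannot be told apart there. The 2-week differences assume that the lone library varies as the other groups do. Cxcl12 is made by stromal and endothelial cells and holds CXCR4-bearing cells in place. It measured 342 at 2 weeks, 876, 1799 and 2719.9 at 6 weeks, and 3286 and 413 at 12 weeks in BRAFV600E tumors. In BRAFV600E/PI3KαH1047R tumors it measured 4711 and 5063 at 2 weeks, 6852, 2515, 1863 and 1296 at 6 weeks, and 1274 and 1831 at 12 weeks. The highest 3 libraries were the BRAFV600E/PI3KαH1047R libraries of 2 weeks and replicate 1 of 6 weeks, and the genotypes overlapped at 6 and 12 weeks. At 2 weeks the log2 fold change was 3.83 (SE 1.10, unadjusted p = 0.00427, limma adjusted p = 0.168), and with weeks pooled it was 1.23 (SE 0.55, limma adjusted p = 0.711, exact permutation p = 0.0716), or 1.49 without both 12-week BRAFV600E/PI3KαH1047R libraries. The genotype effect on Cxcl12 was smaller at 6 than at 2 weeks, with a log2 difference of -3.19 (SE 1.29, unadjusted p = 0.0291, limma adjusted p = 0.511). Cxcr4 was at 30.8 at 2 weeks, 54.6, 217 and 662 at 6 weeks, and 297 and 82.9 at 12 weeks in BRAFV600E tumors. Its BRAFV600E/PI3KαH1047R values were 717 and 466 at 2 weeks, 1111, 219.8, 294 and 136 at 6 weeks, and 134 and 217 at 12 weeks, and the highest 2 of the 14 libraries were again replicate 1 of 6 weeks and replicate 1 of 2 weeks. For Cxcr4 the log2 fold change at 2 weeks was 4.19 (SE 1.35, unadjusted p = 0.00883, limma adjusted p = 0.207) and the difference of the genotype effect between 6 and 2 weeks was -3.53 (SE 1.59, limma adjusted p = 0.557).

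Cx3cl1 encodes a membrane-bound chemokine of epithelium and endothelium that binds CX3CR1 on monocytes and lymphocytes. Its levels were 61.2 at 2 weeks, 66.7, 263 and 473 at 6 weeks, and 273 and 294 at 12 weeks in BRAFV600E tumors. The BRAFV600E/PI3KαH1047R levels were 476 and 323 at 2 weeks, 1001, 414, 306 and 449.9 at 6 weeks, and 522 and 497 at 12 weeks. All 8 BRAFV600E/PI3KαH1047R libraries lay above the BRAFV600E mean on the log scale, although the groups overlapped, since BRAFV600E 6 weeks replicate 3 stood at 473. With weeks pooled the log2 fold change was 1.33 (SE 0.44, unadjusted p = 0.00829, limma adjusted p = 0.511, exact permutation p = 0.0050), and without both 12-week BRAFV600E/PI3KαH1047R libraries it was 1.28. By week it was 2.66 at 2 weeks (SE 0.92, limma adjusted p = 0.240) and 1.27 at 6 weeks (SE 0.58, unadjusted p = 0.0481, limma adjusted p = 1, exact permutation p = 0.200). The 6-week value of Cx3cl1 was 0.47 without BRAFV600E 6 weeks replicate 1. At 12 weeks its log2 fold change was 0.84 (SE 0.75), and both BRAFV600E/PI3KαH1047R libraries lay above both BRAFV600E libraries. Endothelial markers ran beside these 3 genes, and all 10 of them were higher in BRAFV600E/PI3KαH1047R tumors at 2 weeks at an unadjusted p under 0.05. Their summed level was 6818 in the BRAFV600E library of 2 weeks, 5879 to 41444 in the other BRAFV600E libraries, 58643 and 60069 in the BRAFV600E/PI3KαH1047R libraries of 2 weeks and 84651 in replicate 1 of 6 weeks, and no marker was at 0 throughout. All 10 fibroblast markers also had a positive log2 fold change for genotype at 2 weeks (median 1.10). Their sum was 43633 in the BRAFV600E library of 2 weeks and highest, at 99919, in BRAFV600E/PI3KαH1047R 2 weeks replicate 2. The part of endothelial and fibroblast RNA in the levels of Cxcl12, Cxcr4 and Cx3cl1 was not tested.

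**Figure D4:**
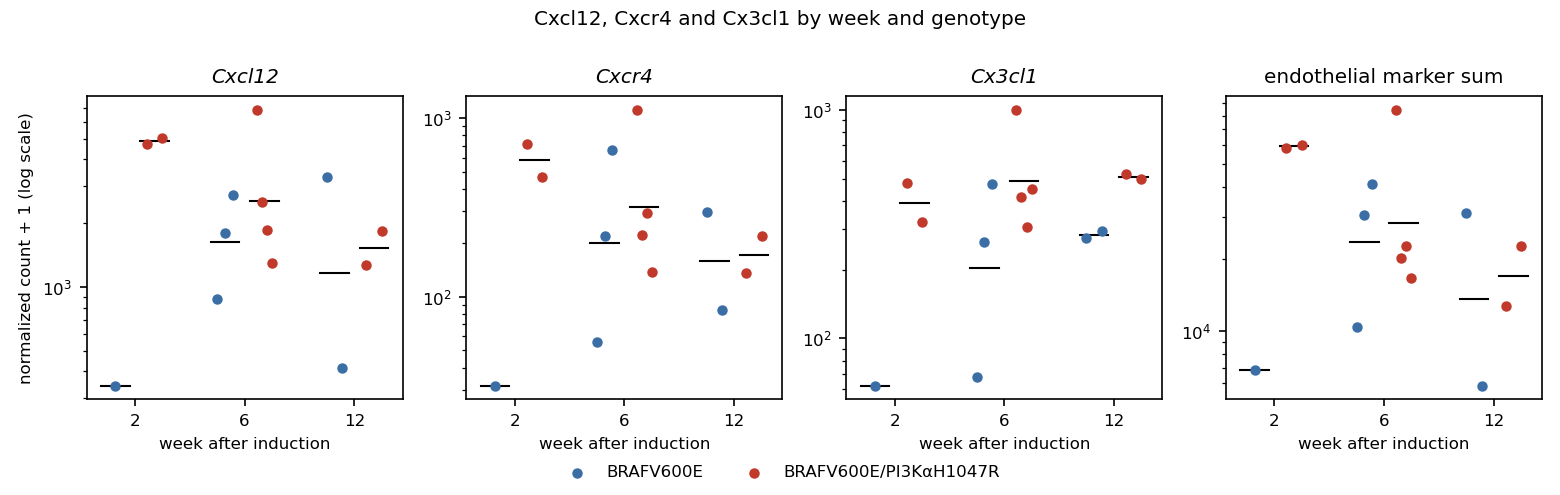
Points are libraries and bars are means on the log scale of normalized count + 1 at 2, 6 and 12 weeks after induction, for Cxcl12, Cxcr4, Cx3cl1 and the sum of 10 endothelial markers in BRAFV600E and BRAFV600E/PI3KαH1047R tumors. BRAFV600E/PI3KαH1047R 6 weeks replicate 1 is the highest library in all 4 panels, at 6852 for Cxcl12 and 84651 for the endothelial sum.

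Cxcl13, Cxcl14 and Cxcl16 had no unadjusted p under 0.05 between genotypes in any week. Cxcl16, a membrane-bound ligand of CXCR6, ranged from 386 to 1080.3 with a median of 735 in BRAFV600E and from 309 to 1117 with a median of 721 in BRAFV600E/PI3KαH1047R tumors. Cxcl14, a constitutive epithelial and stromal chemokine, was at 62.6 at 2 weeks, 73.1, 128 and 68.1 at 6 weeks, and 68.6 and 7.21 at 12 weeks in BRAFV600E tumors. In BRAFV600E/PI3KαH1047R tumors Cxcl14 was at 172 and 401 at 2 weeks, 646, 86.0, 69.8 and 38.7 at 6 weeks, and 20.6 and 68.0 at 12 weeks, and it was lower at 12 than at 6 weeks, with a log2 fold change of -1.67 (SE 0.75, unadjusted p = 0.0422, limma adjusted p = 0.901), or -1.59 without both 12-week BRAFV600E/PI3KαH1047R libraries. Cxcl13, which attracts B cells through CXCR5, exceeded 30 only in BRAFV600E/PI3KαH1047R tumors, in both 2-week libraries (96.4 and 31.5) and in 12 weeks replicate 1 (125), and was at most 12.5 in the other 11 libraries. Its log2 fold change at 6 weeks was -1.67 (SE 1.12, limma adjusted p = 1, exact permutation p = 0.257), and -1.06 without BRAFV600E/PI3KαH1047R 6 weeks replicate 3.

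Among the CC ligands, Ccl17, made by dendritic cells and macrophages, attracts CCR4-bearing T cells. It reached the mean of 10 needed for the test only through BRAFV600E/PI3KαH1047R tumors (mean 19.9 against 2.78), so its genotype difference is a description. It was at 0 at 2 weeks, 7.16, 6.28 and 0 at 6 weeks, and 3.23 and 0 at 12 weeks in BRAFV600E tumors and thus listed at 0 in 3 of 6 libraries. The BRAFV600E/PI3KαH1047R values were 9.46 and 31.1 at 2 weeks, 0.850, 14.4, 6.00 and 47.5 at 6 weeks, and 19.4 and 30.9 at 12 weeks. The log2 fold change was 2.54 (SE 0.80), or 2.28 without both 12-week BRAFV600E/PI3KαH1047R libraries, and it was 4.20 at 2 weeks (SE 1.91) and 3.63 at 12 weeks (SE 1.56; 2.59 without BRAFV600E 12 weeks replicate 2). At levels this low the added count sets part of these values, which with 4 in place of 1 were 1.64 with weeks pooled, 2.44 at 2 weeks and 2.41 at 12 weeks. Ccl22, the other CCR4 ligand, had high values in BRAFV600E/PI3KαH1047R tumors of 2 weeks (275 and 79.0) and in 6 weeks replicate 4 (138), was at 36.9 in replicate 3 and 50.4 in 12 weeks replicate 2, and was at or below 25.2 in the remaining 9 libraries of both genotypes.

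Ccl6 and Ccl9, CCR1 ligands that mouse macrophages and other myeloid cells make constitutively, were found in every library. Ccl6 measured 35.6 at 2 weeks, 76.9, 114 and 426 at 6 weeks, and 651 and 618 at 12 weeks in BRAFV600E tumors. In BRAFV600E/PI3KαH1047R tumors it measured 798 and 243 at 2 weeks, 188, 454, 495 and 101 at 6 weeks, and 1707 and 418 at 12 weeks. In BRAFV600E tumors both 12-week libraries were above all earlier ones, and across both genotypes Ccl6 was higher at 12 than at 6 weeks by 1.90 log2 units (SE 0.68, unadjusted p = 0.0137, limma adjusted p = 0.901), or by 2.48 without both 12-week BRAFV600E/PI3KαH1047R libraries. For 12 against 6 weeks 12 of 14 macrophage markers were above 0 (median 1.34, 7 at an unadjusted p under 0.05), with sums of 2754 to 9556 at 6 weeks and 8161 to 35156 at 12 weeks. For genotype at 2 weeks it was 3.59 (SE 1.19, unadjusted p = 0.0103, limma adjusted p = 0.213). All 14 macrophage markers had a positive log2 fold change in that comparison (median 1.95, 4 at an unadjusted p under 0.05), with sums of 2513 in the BRAFV600E library and 15820 and 6618 in the BRAFV600E/PI3KαH1047R libraries, and the part of macrophages in Ccl6 was not tested in either comparison. Its genotype effect was smaller at 6 than at 2 weeks, with a log2 difference of -2.88 (SE 1.40, limma adjusted p = 0.573). Ccl9 ranged from 55.4 to 359 with a median of 187 in BRAFV600E and from 61.9 to 548 with a median of 89.2 in BRAFV600E/PI3KαH1047R tumors. Ccl3, an inflammatory ligand of CCR1, was at 1.20 at 2 weeks, 3.11, 6.38 and 124 at 6 weeks, and 61.8 and 90.7 at 12 weeks in BRAFV600E tumors. The BRAFV600E/PI3KαH1047R values of Ccl3 were 0 and 0.797 at 2 weeks, 55.3, 30.7, 1.01 and 5.05 at 6 weeks, and 204 and 29.3 at 12 weeks. It was below 1.5 in all 3 libraries of 2 weeks and scattered later, with a log2 fold change of 3.07 for 6 against 2 weeks (SE 1.14), a description, and 2.50 for 12 against 6 weeks (SE 1.04, limma adjusted p = 0.901), the latter 2.23 without both 12-week BRAFV600E/PI3KαH1047R libraries.

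The eosinophil chemokine Ccl11 went the other way. At 2 weeks it stood at 27.3 in BRAFV600E and 131 and 40.8 in BRAFV600E/PI3KαH1047R tumors, and after that at 27.3 in 1 library and at or below 12.7 in the other 10, and its log2 fold change for 6 against 2 weeks was -3.32 (SE 1.00). Ccl11 reached the mean of 10 only through the 2-week libraries, so this difference too is a description. The fibroblast marker sum was also highest in the BRAFV600E/PI3KαH1047R libraries of 2 weeks (76026 and 99919), and the part of fibroblasts was not tested. Ccl27a, a CCR10 ligand, was lower at 6 than at 2 weeks, with a log2 fold change of -1.08 (SE 0.45, limma adjusted p = 0.371) and -0.65 without BRAFV600E/PI3KαH1047R 2 weeks replicate 1, but 57.0% of its 31-base stretches occur in other genes and its exons overlap Il11ra1 on the other strand. Ccl21a and Ccl21b, CCR7 ligands, share 80.6% and 100% of such stretches with other genes, and their values are uncertain for that reason. Ccl25, the CCR9 ligand, ranged from 251 to 524 with a median of 364 in BRAFV600E and from 267 to 651 with a median of 339.7 in BRAFV600E/PI3KαH1047R tumors. Ccl28, a mucosal ligand of CCR10 and CCR3, ranged from 42.6 to 129 with a median of 93.1 and from 33.3 to 109 with a median of 72.6 in the same order.

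Among receptors, Cxcr2, which binds the ELR ligands and marks neutrophils, ranged from 207 to 448 with a median of 393 in BRAFV600E and from 205 to 458 with a median of 361 in BRAFV600E/PI3KαH1047R tumors. The monocyte receptor Ccr2 ranged from 225 to 416 with a median of 294 and from 209 to 576 with a median of 242, in the same order, with replicate 1 of BRAFV600E/PI3KαH1047R at 12 weeks highest. Ccr9, which homes lymphocytes to the gut, was lower in BRAFV600E/PI3KαH1047R tumors with weeks pooled. It ranged from 192 to 378 with a median of 243 in BRAFV600E and from 134 to 272 with a median of 177 in BRAFV600E/PI3KαH1047R tumors, with a log2 fold change of -0.48 (SE 0.23, unadjusted p = 0.0483, limma adjusted p = 0.726, exact permutation p = 0.0333), or -0.55 without both 12-week BRAFV600E/PI3KαH1047R libraries. Exons of Ccr9 overlap Slc6a20a on the other strand.

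Ccr1, a receptor of myeloid cells, was at 238 at 2 weeks, 12.6, 1.07 and 41.0 at 6 weeks, and 26.9 and 23.7 at 12 weeks in BRAFV600E tumors. Its BRAFV600E/PI3KαH1047R values were 4.82 and 6.30 at 2 weeks, 0, 18.0, 5.03 and 1.69 at 6 weeks, and 91.0 and 0.912 at 12 weeks. The log2 fold change of Ccr1 was -1.95 with weeks pooled (SE 1.05, limma adjusted p = 0.741, exact permutation p = 0.115; -1.29 without the lone BRAFV600E library of 2 weeks) and -5.20 at 2 weeks (SE 2.25), where the single BRAFV600E library was the highest of all 14. Cxcr5, the B cell receptor of Cxcl13, was at 305, 29.2 and 27.6 in BRAFV600E tumors of 6 weeks and at 13.3, 0, 9.17 and 1.92 in BRAFV600E/PI3KαH1047R tumors. These groups did not overlap, as for 2.6% of all genes in that direction and for no other member at 6 weeks (0 of 40 upward, 2.63% of genes). For Cxcr5 the log2 fold change was -3.82 (SE 1.39) and -2.70 without BRAFV600E 6 weeks replicate 1, a description, since its mean was under 10 in BRAFV600E/PI3KαH1047R tumors. For the B cell markers 0 of 7 log2 fold changes were above 0 (median -0.60, 1 at an unadjusted p under 0.05), and their sums were 539 to 3005 in BRAFV600E and 327 to 1011 in BRAFV600E/PI3KαH1047R tumors of 6 weeks. Their part in Cxcr5 was not tested. Cxcr5 overlaps Bcl9l on the other strand. Ccr7, which brings dendritic and T cells to lymph nodes, was at 2.31 in the BRAFV600E library of 2 weeks and at 0 and 4.04 in those of BRAFV600E/PI3KαH1047R. It was at 0, 52.9 and 95.2 in BRAFV600E and 80.6, 12.5, 67.7 and 37.2 in BRAFV600E/PI3KαH1047R tumors at 6 weeks, a log2 fold change of 3.53 for 6 against 2 weeks (SE 1.26), given as a description since its mean was under 10 at 2 weeks. All 12 T and NK cell markers had a positive log2 fold change in that comparison (median 2.23), 7 at an unadjusted p under 0.05, and their sum was 203 to 325 at 2 weeks and 304 to 1379 at 6 weeks. Their part in Ccr7 was not tested.

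Members whose genotypes did not overlap were few outside the smallest groups. With weeks pooled there were 0 higher (0.0854% of genes) and 0 lower (0.125%). At 12 weeks, with 2 libraries in each genotype, 12 members were higher in both BRAFV600E/PI3KαH1047R libraries (among them Ccl2, Ccl5, Ccl11, Ccl17, Ccl21a, Ccl27a, Cxcl9, Cxcl10, Cxcl11, Cx3cl1 and Cx3cr1), where 15.4% of genes were, and 2 were lower (Ccl21b and Ccl24), where 13.8% were. At 2 weeks, with 1 BRAFV600E library, 15 were higher (36.6% of genes) and 19 lower (35.1%). A share of 30% of the members at 12 weeks thus stood beside 15.4% of all genes, without a test, and 1 of the libraries concerned was the highest for 19 members.

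Loss of PGC1α, a coactivator of mitochondrial and lineage genes, was compared at 12 weeks in BRAFV600E tumors. Of the 12 receptors tested 11 had a log2 fold change above 0 in PGC1αNull tumors (median 0.45) and of the 25 ligands 15 (median 0.38). Markers of leukocytes, which carry most of the receptors, also leaned upward. All 7 B cell markers had a positive log2 fold change (median 1.42, 2 at an unadjusted p under 0.05), with sums of 183 to 398 in PGC1αHet and 264 to 1129 in PGC1αNull tumors, and so did 9 of 10 T and NK cell markers (median 0.72, 3 at that p), with sums of 150 to 451 and 273 to 648. Above 0 were also 12 of 14 macrophage markers (median 1.22, 6 at that p), 6 of 7 neutrophil markers (median 0.43, 0 at that p) and 7 of 8 dendritic cell markers (median 0.18, 0 at that p). The part of leukocytes in the receptor values was not tested. Cxcr4 was at 19.9, 82.5, 21.5, 28.0 and 35.6 in PGC1αHet tumors. In PGC1αNull tumors it was at 191, 58.9, 98.4 and 118. The groups overlapped through the PGC1αHet library at 82.5, and the log2 fold change was 1.69 (SE 0.47, unadjusted p = 0.00333, limma adjusted p = 0.682, exact permutation p = 0.0238). Cxcl12, its ligand, was at 57.8, 11.6, 7.59, 11.7 and 35.6 in PGC1αHet and 40.5, 89.4, 97.3 and 43.9 in PGC1αNull tumors, a log2 fold change of 1.69 (SE 0.60, unadjusted p = 0.0141, limma adjusted p = 0.998, exact permutation p = 0.0635). Ccl6 was at 185, 296, 37.5, 188 and 289.9 in PGC1αHet and 767, 235, 1331 and 185 in PGC1αNull tumors (1.49, SE 0.66, limma adjusted p = 0.998, exact permutation p = 0.167; 0.97 without PGC1αHet replicate 3). Ccl25 was the member lower in PGC1αNull tumors at an unadjusted p under 0.05, at 106, 131, 133, 148 and 67.4 in PGC1αHet and 40.3, 54.4, 100.05 and 65.0 in PGC1αNull tumors (-0.87, SE 0.35, limma adjusted p = 0.998, exact permutation p = 0.0317), and its exons overlap Elavl1 on the other strand. Cxcr6, the receptor of Cxcl16, was at 2.92, 19.8, 7.47, 12.3 and 26.9 in PGC1αHet against 28.0, 27.7, 23.9 and 34.3 in PGC1αNull tumors (1.28, SE 0.61, limma adjusted p = 0.998, exact permutation p = 0.0556). No member separated the 2 groups without overlap, as 0.941% of genes did upward and 0.459% downward.

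The epithelial ligands overlapped between the PGC1α groups. Cxcl15 measured 22656, 22821, 28103, 28015 and 21291 in PGC1αHet and 22298, 27861, 13552 and 16962 in PGC1αNull tumors. Cxcl17 was at 323, 328, 325, 311 and 168 in PGC1αHet against 195, 354, 287 and 179 in PGC1αNull tumors, and Cxcl16 at 291, 466, 508, 668 and 457 in PGC1αHet against 306, 664, 465 and 114 in PGC1αNull tumors. Cx3cl1 was at 378, 285, 184, 216 and 259 in PGC1αHet against 181, 369.5, 119 and 106 in PGC1αNull tumors. The ranges of all 4 ligands overlapped. Cxcl9 was low in all 9 libraries, 25.9, 56.5, 4.30, 8.95 and 26.3 in PGC1αHet and 17.8, 11.6, 31.6 and 48.2 in PGC1αNull tumors. Ccl3 was at 228, 81.0, 65.1, 37.7 and 149.9 in PGC1αHet against 130.0, 183, 33.4 and 46.8 in PGC1αNull tumors, and Ccl9 at 97.6, 63.5, 33.7, 87.2 and 109 in PGC1αHet against 144, 158, 89.7 and 60.8 in PGC1αNull tumors. Among receptors, Cxcr2 was at 849, 621, 393, 234 and 701 in PGC1αHet and 1018, 509.9, 425 and 982 in PGC1αNull tumors. Ccr9 was at 166, 189, 136, 89.7 and 180.4 in PGC1αHet against 194, 75.6, 179.7 and 376 in PGC1αNull tumors, and Ccr2 at 122, 81.6, 55.9, 78.0 and 139 in PGC1αHet against 159, 96.2, 98.4 and 128 in PGC1αNull tumors. None of these 3 receptors separated the groups. Endothelial markers did separate them, with a summed level of 335 to 837 in PGC1αHet and 1421 to 2131 in PGC1αNull tumors, and all 10 were higher at an unadjusted p under 0.05. Macrophage markers summed to 585 to 4238 and 1888 to 12499, with 6 of 14 higher by the same measure, and no marker of either list was at 0 throughout. All 9 fibroblast markers tested had a positive log2 fold change (median 1.51, 6 at an unadjusted p under 0.05), with sums of 825 to 1825 and 1148 to 3673. Club cell markers, all 6 positive and 4 at that p, separated the groups with sums of 1598 to 3588 and 5317 to 20287. The part of these cells in Cxcr4, Cxcl12 and Ccl6 was not tested.

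**Figure D5:**
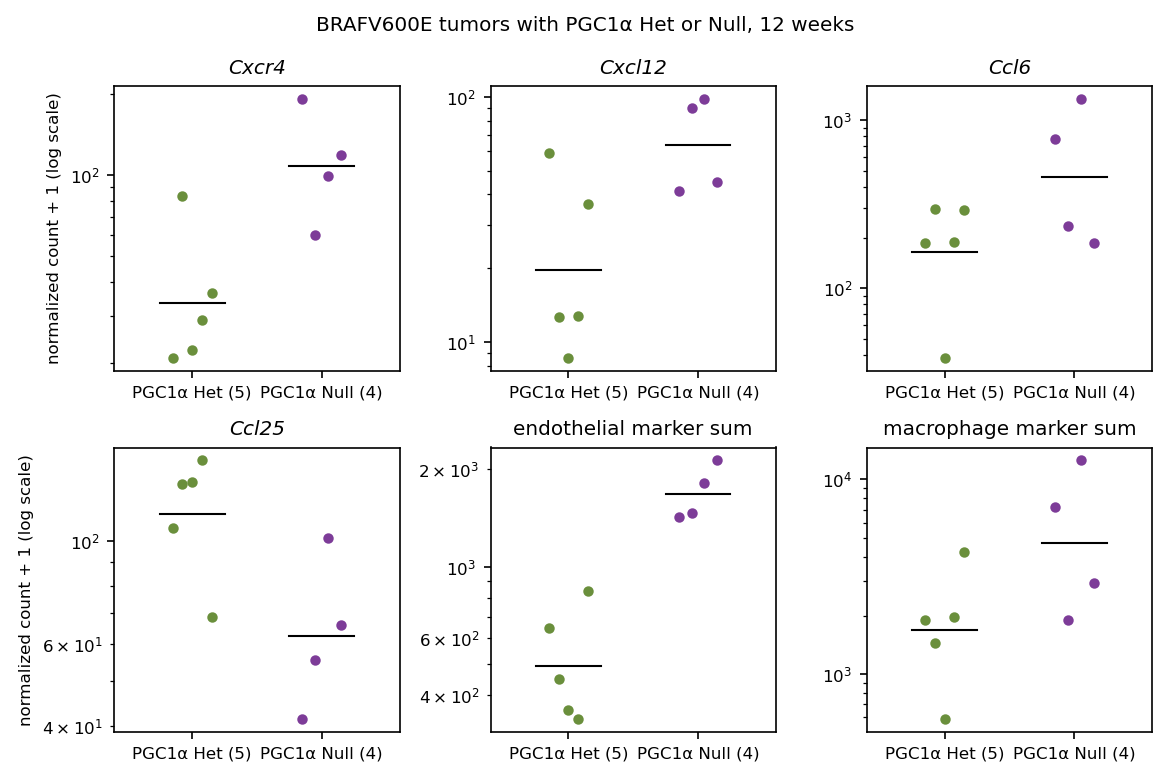
Points are the 5 PGC1αHet and 4 PGC1αNull libraries of 12 weeks and bars their means on the log scale of normalized count + 1, for Cxcr4, Cxcl12, Ccl6, Ccl25 and the sums of 10 endothelial and 14 macrophage markers. The endothelial sum separates the groups (at most 837 against at least 1421), and each chemokine panel overlaps.

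Other genes of the chemokine system gave no adjusted call either. Of 27 genes of receptor signaling, 2 were higher at an unadjusted p under 0.05 with weeks pooled (3.46% of all genes), Pik3r6 (log2 fold change 1.16), an adapter of the PI3Kγ that chemokine receptors activate, and Plcb2 (0.75), a phospholipase downstream of Gi. Plcb2 was also the one higher at 12 weeks (1.36, with 2.18% of genes higher). At 2 weeks 5 of the 27 were higher (6.93% of genes), among them Rac2 (2.91) and Gnai2 (1.64), and Grk3 was lower (-2.54, with 6.57% of genes lower). For 6 against 2 weeks Grk3 (1.06) and Rgs16 (3.43) were higher (6.58% of genes), and for 12 against 6 weeks Ptk2b (1.26) and Rgs1 (1.61) were higher (2.3%) and Grk2 lower (-0.74, with 3.02% lower). In PGC1αNull tumors 5 of these 27 were higher (2.66% of genes), Plcb2 (1.66), Prex1 (1.59), Rac2 (1.58), Gng2 (1.31) and Rgs2 (1.25), and none lower. Of the 6 atypical and chemokine-like receptors that were tested, 3 were higher at 2 weeks in BRAFV600E/PI3KαH1047R tumors (6.93% of genes), Ackr2 (4.49) and Ackr3 (2.65), which scavenge CC ligands and Cxcl12, and Ccrl2 (3.21). Ackr3 was also higher in PGC1αNull tumors (1.86). Of the interferon regulators described here, the receptor chain Ifnar2 was higher (1.55, with 6.93% of genes higher) and Ifnar1 lower (-1.38, with 6.57% lower) at 2 weeks, and Socs3, a feedback inhibitor, was higher for 6 against 2 weeks (1.49, with 6.58% of genes higher). Of 22 genes of NF-κB and its feedback, 0 had an unadjusted p under 0.05 with weeks pooled (6.83% of genes) or at 6 (4.24%) or 12 weeks (3.76%), and at 2 weeks Il1a (6.38) and Rel (1.57) were higher (6.93% of genes) and Tnf (-3.95) and Csf2 (-3.68) lower (6.57%). For 6 against 2 weeks the kinase Ikbkb (-0.52) and the inhibitor Nfkbia (-0.93) were lower (5.35% of genes), for 12 against 6 weeks the subunit Relb was higher (1.00, with 2.3% of genes higher), and in PGC1αNull tumors the kinase Chuk was lower (-0.54, with 1.17% of genes lower). Of 8 proteases that trim or shed chemokines, Adam17, which releases Cx3cl1 from the membrane, was the one lower with weeks pooled (-0.54, with 3.38% of genes lower), and at 6 weeks Mmp12 was (-1.44, with 1.99% lower). In PGC1αNull tumors Ctss (1.498) and Mmp2 (2.30) were higher, against 2.66% of genes. For 6 against 2 weeks 3 of the 8 were higher (Mmp12 1.34, Ctss 1.44 and Dpp4 0.63, with 6.58% of genes higher) and 2 lower (Mmp2 -1.30 and Mmp9 -2.74, with 5.35% lower), and for 12 against 6 weeks Ctss was higher (1.64, with 2.3% of genes higher). The platelet ligands Pf4 and Ppbp, which the symbol rule leaves out, had no unadjusted p under 0.05 in any comparison.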

How the data were processed

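RNA was taken from flow-sorted tdTomato+ cells of dissociated lungs, samples with an RNA integrity number above 6 were kept, and libraries (Nugen Ovation Ultralow v2) were read single-end on an Illumina HiSeq instrument. The deposited values are a signal per gene: Salmon estimates that the authors scaled with DESeq2, on GRCm38 per the submitters' processing notes (FastQC is also named, and versions are not given in the sources used here). They are not whole numbers and low values share no step, so the depth in reads is unknown and no counting interval is given. The authors' tables of comparisons (base mean, log2 fold change, standard error, statistic and p-values) were not used.

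Members and lists were chosen with earlier results of these data known. Values were taken as log2 (normalized count + 1), genes with a mean of at least 10 in a table were tested by limma 3.58.1 (R 4.3.3, trended variance), and p-values were adjusted by Benjamini-Hochberg over all genes tested within that table. The genotype comparisons per week and the comparisons of weeks came from fits of genotype and week together, so all libraries share 1 estimate of spread. Two-sided exact permutation tests over libraries were run for single genes with weeks pooled (3003 splits), at 6 weeks (35 splits) and for PGC1α (126 splits). Libraries are separate samples by label, and p-values measure the spread between these samples. The fits were tested on simulated data. Named members were those with an unadjusted p under 0.05 or the 5 lowest p in each comparison, plus the 8 ligands and 4 receptors with the highest means in each table and the members nearest the threshold of 10. Results of 1 receptor and of 1 gene of the lists are not reported here. Positions and exon lengths came from GENCODE vM21 and promoter windows from RefSeq (GRCm38.p6). Alternatives were a pseudocount of 4, a minimum mean of 40 or none, quantile normalization, sex as a factor, the replicate number as a block and leaving out each library. Tables were handled in Python 3.11.15 (pandas 2.3.3), permutations with scipy 1.17.1, and figures drawn with matplotlib 3.10.9.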

Additional observations from a re-analysis of the deposited data

Results flagged for a closer look

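A Dixon test on log2 (normalized count + 1) set 11 of 194 tests of a gene in a group of libraries apart at the 95% level, and chance sets apart about 1 in 20. Of these, 4 fell on BRAFV600E/PI3KαH1047R 12 weeks replicate 1 among the 8 BRAFV600E/PI3KαH1047R libraries, with Ccl2 at 215 (next library 8.02), Ccl5 at 175 (43.6), Cxcl11 at 249 (31.4) and Cxcl3 at 230.1 (27.6). This library also has the highest macrophage marker sum (35156) and Y-linked levels that go against its sex label, and the part of either in these values was not tested.

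Cx3cl1 was set apart in BRAFV600E/PI3KαH1047R 6 weeks replicate 1 among the same 8 libraries, at 1001 (next library 522), where the endothelial marker sum was also highest (84651). Ccr2 stood at 407 in BRAFV600E/PI3KαH1047R 6 weeks replicate 3 among 4 libraries (next 229). Cxcl14 was low in BRAFV600E 12 weeks replicate 2 among 6 libraries, at 7.21 (next 62.6).

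In the PGC1α table, Ccl17 was listed at 0 in PGC1αNull replicate 4 (next 47.8) and Cxcl3 stood at 16.5 in PGC1αNull replicate 1 (next 56.4), each among 4 libraries. Ccl6 was at 37.5 in PGC1αHet replicate 3 (next 185) and Cxcl17 at 168 in PGC1αHet replicate 5 (next 311), each among 5 libraries.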

How the results depend on the processing

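The count of members at an adjusted p under 0.05 was 0 in each comparison under every alternative that was run, except for 6 against 2 weeks, where it ran from 0 to 2 when single libraries were left out: 2 without the lone BRAFV600E library of 2 weeks (Cxcl17 and Cxcl1) and 1 without BRAFV600E/PI3KαH1047R 6 weeks replicate 1 (Cxcl17). Of 1041 values of named members under an alternative, 1038 were tallied as unchanged, 3 passed the adjusted threshold and 0 reversed. All named members were above that threshold with all libraries, and many libraries left out lie outside the comparison concerned. Staying above it therefore says little about stability. The tally also includes exact permutation results, which have no adjusted p. Deviations of same-numbered libraries had correlations of -0.28, -0.03 and -0.01 at 6 weeks and of 0.21, -0.21, 0.14 and -0.47 in the PGC1α table. Deviations within groups this small sum to 0, so these values cannot decide whether the numbers pair libraries. With the replicate block the count was 0 in each comparison. At 12 weeks 0 members had an unadjusted p under 0.05 with the sex label as a factor, against 5 without it, and the Y-linked levels of both BRAFV600E/PI3KαH1047R libraries go against that label. When single libraries were left out, the count at an unadjusted p under 0.05 ran from 2 (without BRAFV600E 12 weeks replicate 2) to 5 with weeks pooled, from 5 (without BRAFV600E/PI3KαH1047R 2 weeks replicate 1) to 9 at 2 weeks, from 0 (without BRAFV600E 6 weeks replicate 1) to 3 at 6 weeks, and from 0 to 8 at 12 weeks. The same ranges were 3 to 11 for 6 against 2 weeks (without BRAFV600E/PI3KαH1047R 2 weeks replicate 1 and 6 weeks replicate 1), 1 to 8 for 12 against 6 weeks (without BRAFV600E/PI3KαH1047R 12 weeks replicate 1 and replicate 2), 2 to 6 for PGC1α (without PGC1αHet replicate 3 and PGC1αNull replicate 4), 2 to 7 for the genotype effect at 6 minus 2 weeks (without BRAFV600E 6 weeks replicate 3 and BRAFV600E/PI3KαH1047R 6 weeks replicate 1), and 0 to 6 for that at 12 minus 6 weeks (6 without BRAFV600E/PI3KαH1047R 12 weeks replicate 2, against 1 with all libraries). With weeks pooled and without both 12-week BRAFV600E/PI3KαH1047R libraries, an alternative chosen after seeing the data, 0 members passed and 6 had an unadjusted p under 0.05. The genotype comparison at 2 weeks and its change to 6 weeks could not be fitted without the lone BRAFV600E library, nor the 12-week comparison without both BRAFV600E/PI3KαH1047R libraries. At 2 weeks sex and genotype cannot be told apart, since the BRAFV600E mouse was labelled female and both BRAFV600E/PI3KαH1047R mice male. Depth in reads is unknown, so a member below a mean of 10 is untested and not shown to be absent.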
